A study of Mus musculus with 8 samples.

Results

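Described here are 8 chemokine receptor genes best known from inflammation, Ccr1, Ccr2, Ccr3, Ccr10, Cx3cr1, Cxcr4, Cxcr6 and Xcr1, in naive CD4+ T cells lacking Ezh1, Ezh2 or both. They were taken by symbol, and all 8 were present among 18603 promoter windows for H3K27me3 and among 22410 genes for RNA. Chemokine receptors are G protein-coupled receptors that steer leukocytes along gradients of chemokines, small secreted proteins made in lymphoid organs and inflamed tissue. Naive CD4 T cells rely on receptors for lymph node homing, while the receptors described here are better known from monocytes, granulocytes, dendritic cells, NK cells and effector or memory T cells. Ccr1, Ccr2 and Ccr3 bind inflammatory CC chemokines, Ccr10 binds the epithelial chemokines Ccl27 and Ccl28, Cx3cr1 binds fractalkine, Cxcr6 binds Cxcl16, and Xcr1 binds Xcl1. Cxcr4, the receptor for Cxcl12, is the exception, since resting lymphocytes also use it. Polycomb repressive complex 2 deposits H3K27me3 through either of its catalytic subunits, Ezh1 and Ezh2, and the mark is found at silent developmental and lineage genes.

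The libraries are of naive CD4+ T cells, isolated from the lymph nodes of 129SV/B6 mice. Cells came from Ezh1-/- mice (Ezh1 KO), from Ezh2 fl/fl CD4-cre mice (Ezh2 KO), from Ezh1-/- Ezh2 fl/fl CD4-cre mice (double KO) and from WT mice. CD4-cre, driven by Cd4 regulatory sequence, acts from a stage of T cell development in the thymus, so Ezh2 is present in earlier cells. The Ezh1 KO and the double KO share the Ezh1-/- allele. Whether the WT mice carried cre or a floxed allele, the age of the mice and how many were pooled are not given in the sources used here. There was 1 library per genotype in each assay, so differences carry no SD and no test, and "higher" or "lower" refers to the libraries compared.

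The H3K27me3 value is coverage per M reads summed over a 6 kb window centred on a start site, and the RNA value is the authors' average of exon peaks, also per M reads. ChIP depth, read from the height of 1 read, was 78.2 to 88.2 M reads, and RNA depth was 36.1 to 94.1 M. The 8 windows held 106 to 648 read equivalents each. The CD4 T cell markers summed to 209.6 to 246 on the RNA scale, and all 8 were above 0 in every library. Ezh1 RNA was 0.196 in Ezh1 KO cells, 1.12 in Ezh2 KO cells and 0.194 in double KO cells, against 1.05 in WT. Ezh2 RNA was 0.913 in Ezh1 KO cells, 1.08 in Ezh2 KO cells and 1.17 in double KO cells, against 0.925 in WT, so it was not lower in the libraries labelled as lacking Ezh2. That value averages the peaks of 21 exons, and which exons the floxed allele removes is not given in the sources used here, so the RNA does not check the Ezh2 labels. The H3K27me3 coverage of the Cd4 window, the gene whose regulatory sequence drives cre, was 24.1 in Ezh1 KO cells, 193.5 in Ezh2 KO cells and 212.1 in double KO cells, against 19.9 in WT. It was high in the 2 libraries labelled CD4-cre and low in the other 2. The cause was not tested. These are bulk libraries, so fewer cells of a type and less RNA per cell cannot be told apart.

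Most of these receptors lie together. Ccr1, Ccr2, Ccr3, Cxcr6 and Xcr1 sit within about 305 kb of one another on chromosome 9 (mm9), and Cx3cr1 lies outside that stretch on the same chromosome. Ccr10 is on chromosome 11 and Cxcr4 on chromosome 1. The upstream sequences shown are those of Ccr10, chosen for the most H3K27me3 in WT and the largest double KO difference, and Cxcr4, chosen for the most RNA in WT. CG dinucleotides are marked because Polycomb target promoters are often rich in them. Both are the 250 bases before the start site on the minus strand, mm9, 5′ to 3′, with each CG in capitals. The Ccr10 stretch is chr11:101036758-101037007 and the Cxcr4 stretch is chr1:130488871-130489120.
Ccr10: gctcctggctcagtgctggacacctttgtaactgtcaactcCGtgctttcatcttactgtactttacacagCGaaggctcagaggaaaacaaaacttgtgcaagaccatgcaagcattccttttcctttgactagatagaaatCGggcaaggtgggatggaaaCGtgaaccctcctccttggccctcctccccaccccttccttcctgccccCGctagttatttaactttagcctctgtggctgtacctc
Cxcr4: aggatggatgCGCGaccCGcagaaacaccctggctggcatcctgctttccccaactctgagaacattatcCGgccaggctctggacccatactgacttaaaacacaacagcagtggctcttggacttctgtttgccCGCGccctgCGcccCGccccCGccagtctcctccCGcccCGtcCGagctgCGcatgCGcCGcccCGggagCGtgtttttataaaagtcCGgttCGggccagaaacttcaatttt
The Ccr10 stretch holds 5 CG dinucleotides, and 73.9% of 16861 upstream stretches of this length hold at least as many. Cxcr4 has 19, a number reached by 28.6%. Over the whole 6 kb windows, Ccr10 has 187 CG and Cxcr4 has 200, more than in 85.6% and 89.2% of all windows. The median over all windows is 117, and over the 2231 windows marked in WT it is 151. Cx3cr1 follows with 82 CG, and Ccr1, Ccr2, Ccr3, Cxcr6 and Xcr1 have only 16 to 34.

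In WT cells, 1 of the 8 windows was marked, meaning that it reached 4 times the background median, taken over 7077 windows of genes in the top tertile of WT RNA. That window was Ccr10, at 48.9 or 4.82 times background. Part of it is shared with the windows of Plekhh3 and Cntnap1. These were also marked in WT, at 4.26 and 4.72 times background, so the coverage cannot be assigned to the Ccr10 promoter alone. Of all 18603 windows, 2231 were marked in WT. The other 7 windows lay between 9.46 (Xcr1) and 20.3 (Cx3cr1), or 0.933 to 2.00 times background, around the WT median of 13.5 over all windows. In the order of WT levels, Ccr10 stood above Cx3cr1 beyond counting error, with a log2 difference of 1.27 (95% counting interval 1.06 to 1.48). Cx3cr1, Ccr2 and Ccr3 followed at 20.3, 18.9 and 18.4, and Cx3cr1 differed from Ccr2, and Ccr2 from Ccr3, by less than counting error. Ccr3 was above Ccr1 beyond it, and below that Ccr1, Cxcr6, Cxcr4 and Xcr1, at 13.5, 13.5, 11.1 and 9.46, again did not separate from their next neighbour. These intervals hold counting error alone and treat reads as independent. Amplified reads lacking molecular identifiers are not independent, so the intervals can be too narrow.

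**Figure D1:**
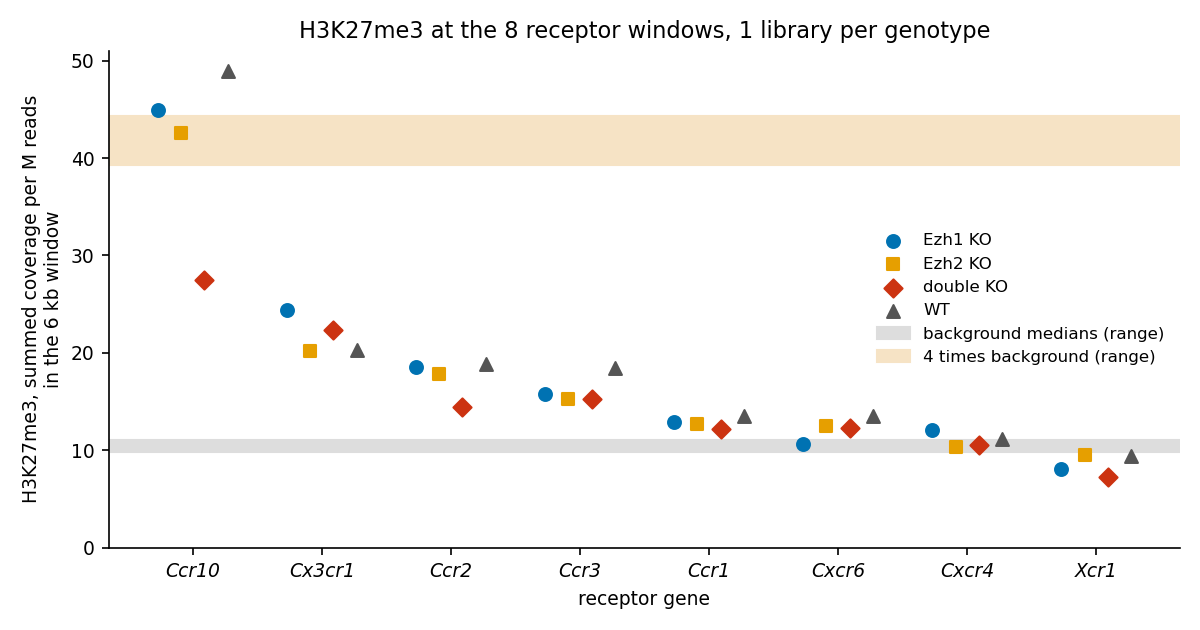
H3K27me3 at the 8 receptor windows, as summed coverage per M reads, with 1 point per library and bands for the range of the background medians and of the level 4 times above them. Ccr10 stands apart in 3 libraries at 42.6 to 48.9 and lies at 27.5 in the double KO, while the other 7 windows stay at 7.24 to 24.4.

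Ccr10 and Cxcr4, chosen for their WT levels, also had the highest CG counts of the 8 windows. Ccr10 had 48.9 of H3K27me3 and an RNA value of 0.0692 in WT, and Cxcr4 had 11.1 and 16.8. The 6 windows poorer in CG had little of either, apart from low RNA of Ccr2 and Cxcr6. This is a description of 8 genes in 1 pair of WT libraries.

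**Figure D2:**
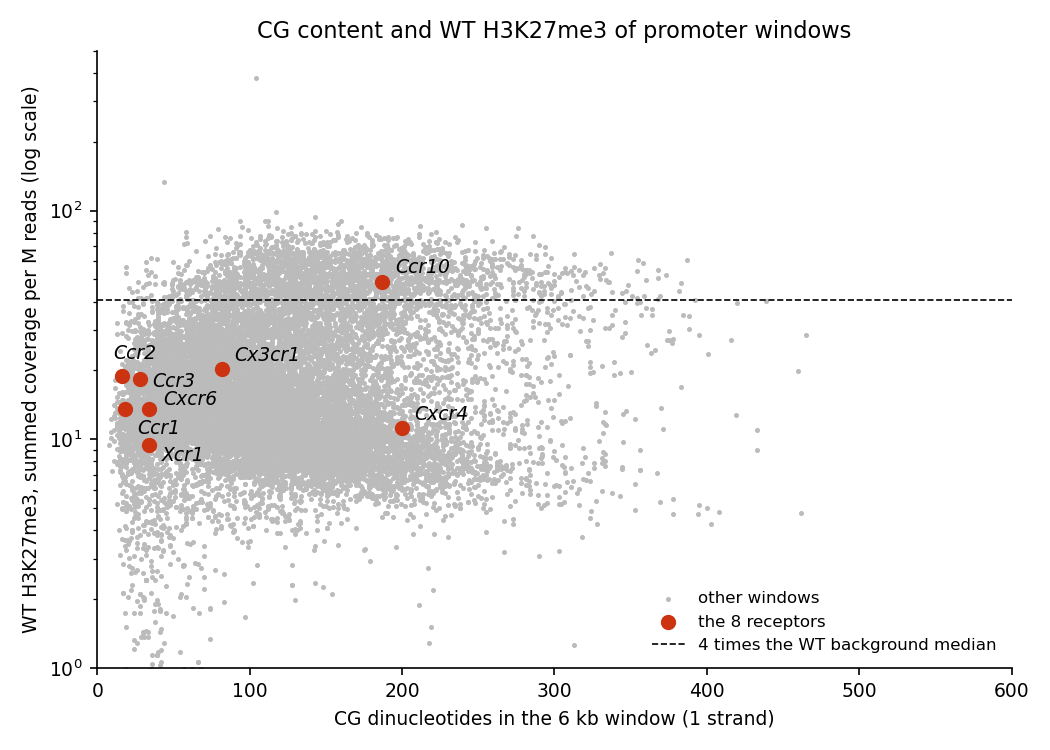
CG dinucleotides in each 6 kb window against WT H3K27me3 on a log axis, for all windows (grey) and the 8 receptors (red). Ccr10 with 187 CG lies above the dashed line at 4 times background and Cxcr4 with 200 CG below it; 542 windows listed at 0 and 95 under 1 are not drawn.

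RNA of the 8 receptors spanned a wide range. A peak of coverage is not divided by gene length, so levels of different genes are set side by side only roughly. Cxcr4 RNA was 14.1 in Ezh1 KO cells, 14.1 in Ezh2 KO cells and 14.6 in double KO cells, against 16.8 in WT. All 4 libraries put it above 98.6% of genes, and the 3 mutant values lay close together below WT. The log2 ratios to WT were -0.25, -0.25 and -0.20 (pseudocount 0.1), beside medians of -0.13, -0.04 and -0.10 over the genes with at least 1 in the higher library. Summed RNA values also differed between libraries: over all genes they came to 34606 in Ezh1 KO, 38292 in Ezh2 KO and 35081 in double KO cells, against 38565 in WT. The sum over the 8 CD4 T cell markers was also highest in WT, at 246, of which Cd3g alone supplied 108.5. It was 209.6 in Ezh1 KO cells, 213.0 in Ezh2 KO cells and 210.6 in double KO cells. Of the 8, 1 was higher than in WT in each mutant. This was Cd3e, at 6.22, 6.49 and 7.33 in the Ezh1 KO, Ezh2 KO and double KO, against 5.39 in WT. The 7 naive T cell markers summed to 88.1, 78.5 and 85.3 in the Ezh1 KO, Ezh2 KO and double KO, against 98.3 in WT. The part of these differences in the Cxcr4 values was not tested.

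Ccr2, best known for bringing monocytes and memory T cells into inflamed tissue, and Cxcr6, found on effector and NKT cells, came next. Ccr2 RNA was 0.821 in Ezh1 KO cells, 0.967 in Ezh2 KO cells and 0.476 in double KO cells, against 0.867 in WT. Cxcr6 RNA was 0.567 in Ezh1 KO cells, 0.538 in Ezh2 KO cells and 0.329 in double KO cells, against 0.575 in WT. For both genes the double KO library was the lowest of the 4 and the other 3 were close. The log2 ratios of the double KO to WT were -0.75 for Ccr2 and -0.65 for Cxcr6, and neither gene reached 2-fold or the minimum of 1 in the higher library.

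With a minimum of 0.1 and a threshold of 1.5-fold, chosen after seeing the data, 3 of the 8 genes could be counted, and Ccr2 and Cxcr6 were lower in the double KO than in WT. Under the same rule 6.17% of 10757 genes differed in that comparison, and 2.62% were lower. The Cxcr6 ratio lay under 1.5-fold with TMM scaling (-0.56) and with median of ratios scaling (-0.58), and with a pseudocount of 1 both genes did (-0.34 for Ccr2, -0.24 for Cxcr6). Against the Ezh1 KO, the double KO log2 ratios were -0.68 for Ccr2 and -0.64 for Cxcr6, and against the Ezh2 KO they were -0.89 and -0.57. Under this rule 4.38% of genes differed against the Ezh1 KO and 4.67% against the Ezh2 KO, in which Cxcr6 did not reach 1.5-fold. The share lower in the double KO was 0.983% against the Ezh1 KO and 2.75% against the Ezh2 KO. The comparisons share the double KO library, so they are 1 observation seen against several others, and those with WT share the WT library.

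Markers of other cells moved between these libraries as well. The 7 memory T cell markers summed to 16.9 in Ezh1 KO cells, 16.5 in Ezh2 KO cells and 15.9 in double KO cells, against 20.1 in WT, and all were above 0. In the Ezh1 KO, Ezh2 KO and double KO, 2, 4 and 2 of the 7 were higher than in WT. The 10 NK and innate-like lymphocyte markers summed to 2.20 in Ezh1 KO cells, 6.91 in Ezh2 KO cells and 3.09 in double KO cells, against 2.47 in WT. In the Ezh1 KO, Ezh2 KO and double KO, 7, 9 and 5 of the 10 were higher than in WT, and none was at 0 in any library. The B cell and plasma cell markers, also 10, summed to 3.17, 6.44 and 7.97 in the Ezh1 KO, Ezh2 KO and double KO, against 2.77 in WT. Of those 10, 7, 9 and 9 were higher than in WT, in the same order. The part of all these cells in the Ccr2 and Cxcr6 values was not tested.

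RNA of the remaining 5 receptors was at the limit of what these libraries resolve. Their values ran from 0.0123 to 0.0831, which correspond to peaks of 1 to 12.8 read heights summed over 2 exons. Xcr1, the receptor of cross-presenting dendritic cells, was at 0.0455 in Ezh1 KO cells, 0.0492 in Ezh2 KO cells and 0.0682 in double KO cells, against 0.0831 in WT. Ccr3, the eotaxin receptor of eosinophils, was at 0.0262, 0.0398 and 0.0523 in the Ezh1 KO, Ezh2 KO and double KO, against 0.0742 in WT. Both were lower in each mutant than in WT, but the WT peak of Ccr3 amounts to just 5.36 read heights. Ccr1 rested on a peak of 1 read in the Ezh2 KO and in WT, and its values were 0.0335 in Ezh1 KO, 0.0123 in Ezh2 KO and 0.0355 in double KO cells, against 0.0138 in WT.

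Cx3cr1, the fractalkine receptor of monocytes and cytotoxic cells, was at 0.0154 in Ezh1 KO cells, 0.0492 in Ezh2 KO cells and 0.0266 in double KO cells, against 0.0404 in WT. Ccr10 was at 0.0821 in Ezh1 KO cells, 0.0492 in Ezh2 KO cells and 0.0266 in double KO cells, against 0.0692 in WT. The Ccr10 values of the double KO and WT each stand for a summed peak of 5.00 read heights, at depths of 94.1 and 36.1 M reads. Granulocyte markers summed to 0.0445 to 0.0920 over 9 genes. Of these, S100a8 and Elane were listed at 0 in the Ezh2 KO, S100a8 and S100a9 in the double KO, and S100a9, Elane and Epx in WT. Dendritic cell markers, with Xcr1 among the 7, summed to 0.612 in Ezh1 KO cells, 0.815 in Ezh2 KO cells and 1.28 in double KO cells, against 0.633 in WT. The 10 monocyte and macrophage markers summed to 2.25, 2.62 and 3.45 in the Ezh1 KO, Ezh2 KO and double KO, against 1.91 in WT, with Cd14 at 0 in WT. The part of these cells in the Xcr1, Cx3cr1 and Ccr3 values was not tested.

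**Figure D3:**
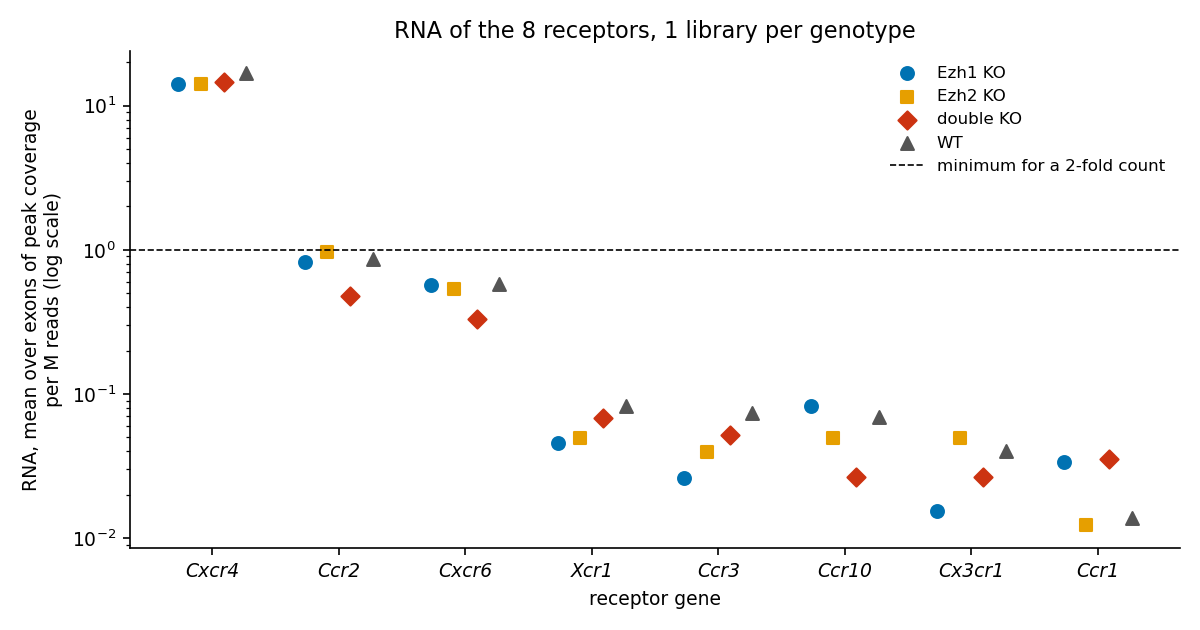
RNA of the 8 receptors on a log axis, given as the authors' average exon peak per M reads, with 1 point per library. Cxcr4 lies at 14.1 to 16.8, Ccr2 and Cxcr6 lie between 0.329 and 0.967 with the double KO lowest, and the other 5 genes stay under 0.1.

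In none of the 3 comparisons with WT did RNA of a receptor pass 2-fold with at least 1 in the higher library. Only Cxcr4 met that minimum, so the counts of 0 say nothing about the other 7. In the double KO, none passed against either single KO. Across all genes over the minimum, 0.883% passed in the double KO against the Ezh1 KO and 0.786% against the Ezh2 KO. Against WT, 0.442% passed in Ezh1 KO cells, 1.5% in Ezh2 KO cells and 1.24% in double KO cells.

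The H3K27me3 comparison of the double KO with WT turned on Ccr10. Its window was at 44.9 in Ezh1 KO cells, 42.6 in Ezh2 KO cells and 27.5 in double KO cells, against 48.9 in WT. The double KO was the lowest library by a wide margin, and the single KO libraries lay close to each other, slightly below WT. The log2 ratio of the double KO to WT was -0.81 (pseudocount 1, counting interval -1.02 to -0.65 for the ratio without it), a level 43.8% lower. Against the Ezh1 KO it was -0.69 (-0.89 to -0.53), and against the Ezh2 KO -0.61 (-0.82 to -0.45). These 3 comparisons share the double KO library. In the highest bin of the window, Ccr10 stood at 0.441 in Ezh1 KO cells, 0.461 in Ezh2 KO cells and 0.318 in double KO cells, against 0.524 in WT.

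Set beside other windows, the Ccr10 ratio was far down in the double KO. Of 17976 windows, 73 had a lower ratio to WT, and of the 2231 windows marked in WT, 15 did. The median ratio of those marked windows was 0.12. In the Ezh1 KO, the Ccr10 log2 ratio was -0.12 (-0.28 to 0.04) while marked windows had a median of 0.29, and 43 of the 2231 were lower than Ccr10. In the Ezh2 KO it was -0.20 (-0.37 to -0.03) beside a median of -0.12, with 620 lower. Relative to background, the Ccr10 window stood at 4.57 times in Ezh1 KO cells, 3.84 in Ezh2 KO cells and 2.64 in double KO cells, against 4.82 in WT. It therefore met the level for a marked window in the Ezh1 KO and WT. It was just under that level in the Ezh2 KO and well under it in the double KO. Windows at that level numbered 3151 in Ezh1 KO, 1394 in Ezh2 KO and 2362 in double KO cells, against 2231 in WT. By rank, Ccr10 was above 85.8% of windows in Ezh1 KO, 91.7% in Ezh2 KO and 78.4% in double KO cells, against 92.8% in WT. Between the single KO libraries, the marked call and the rank thus went opposite ways.

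No receptor window reached 2-fold against WT in any mutant. Of all windows, 0.0334% did in Ezh1 KO cells, 0.0334% in Ezh2 KO cells and 0.172% in double KO cells. In the double KO, none of the 8 did against the Ezh1 KO, beside 0.223% of all windows, or against the Ezh2 KO, beside 0.0334%. At 1.5-fold, Ccr10 was the 1 receptor counted, in the double KO against WT, where 2.62% of all windows passed in either direction and 1.48% were lower. In the Ezh1 KO and the Ezh2 KO none of the 8 passed 1.5-fold, beside 2.19% and 1.4% of all windows. Against the Ezh1 KO, Ccr10 was again the 1 receptor past 1.5-fold in the double KO, beside 2.55% of windows, and against the Ezh2 KO likewise, beside 0.823%. The share of windows lower in the double KO was 2.18% against the Ezh1 KO and 0.289% against the Ezh2 KO. The comparison with the Ezh1 KO fell under 1.5-fold in the highest bin (-0.45), with a pseudocount of 10 (-0.55) and with marked windows set equal (-0.52). That with the Ezh2 KO did so in the highest bin (-0.52), with a pseudocount of 10 (-0.49) and with background scaling (-0.53). A count of 1 in 8 from genes picked with results known is given as a description.

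**Figure D4:**
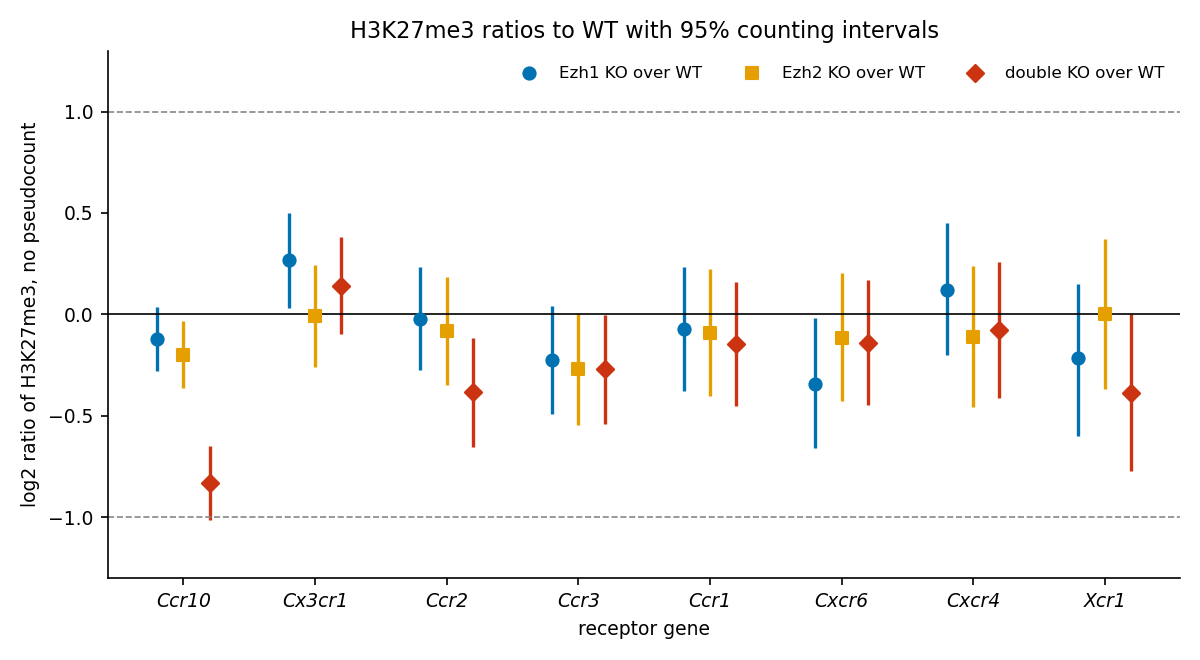
Log2 ratios of H3K27me3 to WT, without a pseudocount, for the 8 receptors in the 3 mutants, with 95% counting intervals and dashed lines at 2-fold. The double KO point of Ccr10 at -0.83 lies far below the others, which run from -0.39 to 0.27.

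Ccr10 lies inside Cntnap1, a neuronal adhesion gene on the opposite strand, and none of the annotated Cntnap1 exons overlaps an exon of Ccr10. Its window shares 1908 bases with that of Plekhh3 and 1080 with that of Cntnap1, so these 3 windows are not independent. Plekhh3 was at 42.3 in Ezh1 KO cells, 43.2 in Ezh2 KO cells and 30.6 in double KO cells, against 43.2 in WT. Cntnap1 was at 49.4, 49.5 and 35.0 in the Ezh1 KO, Ezh2 KO and double KO, against 47.8 in WT. In both the double KO was lowest and the other 3 libraries were close together. Tubg2, with no shared bases at 19.5 kb from the Ccr10 start, was at 19.3, 16.7 and 15.6 in the Ezh1 KO, Ezh2 KO and double KO, against 20.1 in WT, with a double KO log2 ratio of -0.35.

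Ccr10 starts 51.0 kb from the Ezh1 start site, so the Ezh1-/- allele lies on the same stretch of chromosome 11. H3K27me3 at Ezh1 itself was 19.1 in Ezh1 KO cells, 14.5 in Ezh2 KO cells and 17.0 in double KO cells, against 17.2 in WT. Beyond Ezh1, Ramp2 was at 85.8 in Ezh1 KO cells, 65.7 in Ezh2 KO cells and 74.1 in double KO cells, against 69.3 in WT. Ccr10 was at 44.9 in Ezh1 KO cells and 27.5 in double KO cells, which share the Ezh1-/- allele. The part of that allele, or of the chromosome stretch around it, in the Ccr10 values was not tested. Of 21 listed neighbours of Ccr10 and Ezh1, 11 had a double KO ratio to WT above 0 and 10 below, with a median log2 ratio of 0.02 beside 0.05 over all windows. Atp6v0a1, outside that list at 166 kb from Ccr10, was at 19.3 in Ezh1 KO cells, 14.3 in Ezh2 KO cells and 14.5 in double KO cells, against 22.7 in WT. Its log2 ratio was -0.63 in Ezh2 KO and -0.61 in double KO cells, whereas the ratios of Ccr10 were -0.20 and -0.81. The ratio of the double KO to the Ezh2 KO was 0.02 at Atp6v0a1 and -0.61 at Ccr10. Atp6v0a1 was named after its values were seen.

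**Figure D5:**
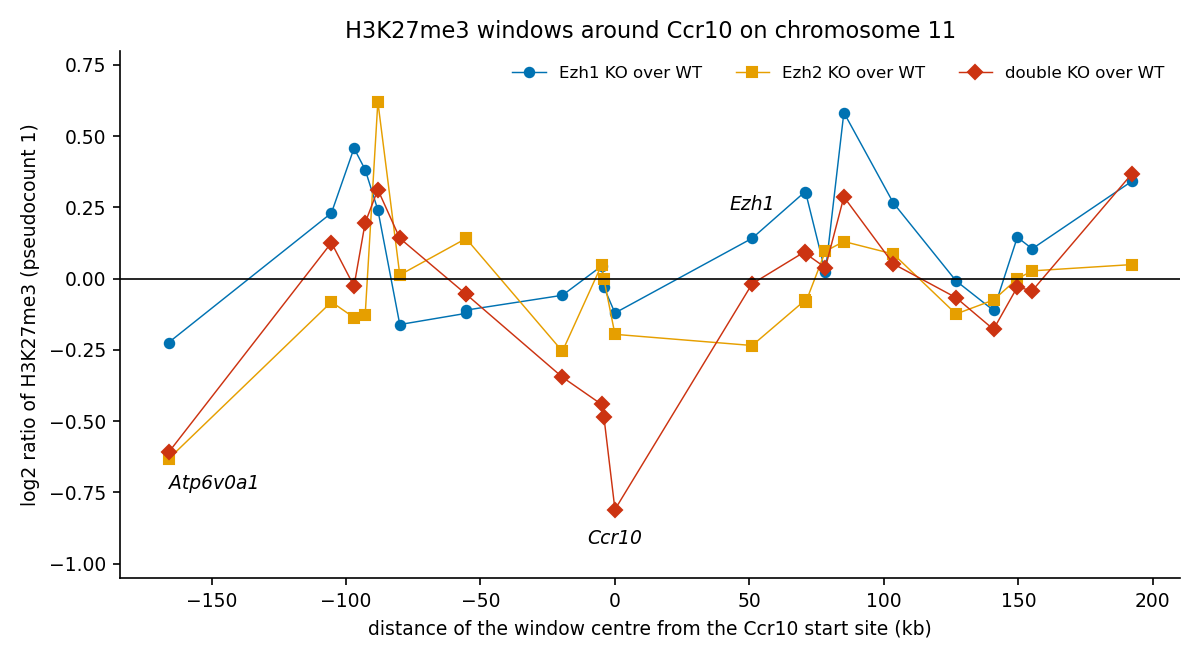
Log2 ratios of H3K27me3 to WT against the distance of each window centre from the Ccr10 start site, in kb, for windows up to 200 kb away, joined by lines only to guide the eye. In the double KO the ratio reaches -0.81 at Ccr10 and is -0.02 at Ezh1, 51.0 kb away.

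The other 7 windows differed less. Ccr2 H3K27me3 was 18.6 in Ezh1 KO cells, 17.8 in Ezh2 KO cells and 14.5 in double KO cells, against 18.9 in WT. As in RNA, the double KO was the lowest and the other 3 were close, with a log2 ratio of -0.36 (-0.66 to -0.11) in the double KO. Both H3K27me3 and RNA of Ccr2 were therefore lowest in the double KO. This window is centred in the gene, 3480 bases from the nearest annotated Ccr2 transcript start, which falls outside it, so the value is not that of the annotated promoter.

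Ccr3 H3K27me3 was 15.7 in Ezh1 KO cells, 15.3 in Ezh2 KO cells and 15.3 in double KO cells, against 18.4 in WT, so all mutants lay together below WT. Its log2 ratio in the double KO was -0.25 (-0.54 to -0.002). Cx3cr1 was at 24.4 in Ezh1 KO cells, 20.2 in Ezh2 KO cells and 22.4 in double KO cells, against 20.3 in WT. It was the 1 receptor with an interval above 0, in the Ezh1 KO (log2 ratio 0.26, 0.03 to 0.50), where the median marked window was 0.29 higher, and its ratio was -0.05 with marked windows set equal. Cxcr6 was at 10.6 in Ezh1 KO cells, 12.5 in Ezh2 KO cells and 12.3 in double KO cells, against 13.5 in WT, with an interval below 0 in the Ezh1 KO (-0.32, -0.66 to -0.02). In the highest bin of that window the Ezh1 KO was above WT, at 0.134 against 0.125.

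Xcr1 H3K27me3 was 8.14 in Ezh1 KO cells, 9.48 in Ezh2 KO cells and 7.24 in double KO cells, against 9.46 in WT. Ccr1 was at 12.9, 12.7 and 12.2 in the Ezh1 KO, Ezh2 KO and double KO, against 13.5 in WT. Cxcr4 was at 12.1, 10.3 and 10.5 in the Ezh1 KO, Ezh2 KO and double KO, against 11.1 in WT. For these 3 genes every interval of the ratio to WT included 0, with an upper bound of 0.00085 for Xcr1 in the double KO, so differences were not detectable at this depth. Over all 8 windows, the ratio to WT was below 0 for 6 in Ezh1 KO cells, 7 in Ezh2 KO cells and 7 in double KO cells. The medians were -0.09, -0.09 and -0.19, beside medians over all windows of 0.09, -0.01 and 0.05. The share of all windows below or above 0 was not counted, here or for the other gene lists. Ccr1, Ccr2, Ccr3, Cxcr6 and Xcr1 share a stretch of chromosome 9. Of 13 listed windows near it, 8, 9 and 9 were also below WT in the Ezh1 KO, Ezh2 KO and double KO, so lower ratios were not particular to these receptors.

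Among 17 other chemokine receptors in the files, none of the windows reached 2-fold against WT in a mutant. Their median log2 ratios of H3K27me3 to WT were 0.22 in Ezh1 KO cells, 0.08 in Ezh2 KO cells and 0.15 in double KO cells, with 13, 11 and 13 of the 17 above 0. Medians over all windows were 0.09, -0.01 and 0.05, in the same order. Of all windows, 0.0334%, 0.0334% and 0.172% reached 2-fold. Ccr8, a receptor of Th2 and regulatory T cells, was at 19.7 in Ezh1 KO cells, 21.9 in Ezh2 KO cells and 23.3 in double KO cells, against 16.7 in WT, and Cxcr1, a neutrophil receptor, was at 25.4, 23.3 and 27.8, against 20.2 in WT. The lowest double KO ratio of the 17 was that of Ccrl2, an atypical receptor that binds chemerin, named after its values were seen. Its H3K27me3 was 24.8 in Ezh1 KO cells, 14.4 in Ezh2 KO cells and 15.8 in double KO cells, against 23.0 in WT, with log2 ratios of -0.64 in Ezh2 KO and -0.52 in double KO cells. Ccrl2 RNA was 0.145, 0.272 and 0.268 in the Ezh1 KO, Ezh2 KO and double KO, against 0.136 in WT. In RNA, 3 of the 17 reached the minimum in the Ezh2 KO, and 1 passed 2-fold, Ccr9, the gut-homing receptor whose gene neighbours Cxcr6. Of all genes over the minimum, 1.5% passed 2-fold in that comparison with WT. Ccr9 RNA was 0.500 in Ezh1 KO cells, 1.54 in Ezh2 KO cells and 0.874 in double KO cells, against 0.632 in WT, and it met the minimum only in the Ezh2 KO.

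Of 17 ligand genes for the 8 receptors, none reached 2-fold in H3K27me3. Their medians were 0.09 in Ezh1 KO cells, -0.09 in Ezh2 KO cells and 0.03 in double KO cells, beside 0.09, -0.01 and 0.05 over all windows. Of all windows, 0.0334%, 0.0334% and 0.172% reached 2-fold, in the same order. Cxcl12, the ligand of Cxcr4, was at 70.7 in Ezh1 KO cells, 49.1 in Ezh2 KO cells and 71.4 in double KO cells, against 53.4 in WT. RNA of 1 ligand reached the minimum, Ccl5, which binds Ccr1 and Ccr3 and is made by effector and memory T cells and NK cells. Ccl5 RNA was 1.47 in Ezh1 KO cells, 2.08 in Ezh2 KO cells and 2.56 in double KO cells, against 0.918 in WT, with log2 ratios of 0.63, 1.10 and 1.38, past 2-fold in the Ezh2 KO and double KO. It met the minimum through the mutant libraries.

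The genes whose pattern was most like that of Ccr10 in H3K27me3, by the Euclidean distance over the 3 log2 ratios to WT among 17988 windows, were Hist1h1b, Hist1h2bk and Hist1h2ah, at distances of 0.0665, 0.0915 and 0.104. Hist1h1b was at 12.8 in Ezh1 KO cells, 12.6 in Ezh2 KO cells and 8.11 in double KO cells, against 14.4 in WT. Sequence shared between these windows and other histone genes was not tested. Most like Cxcr4 in RNA, among 5448 genes, were Cdkn1b, Angel2 and Prosc, at 0.0161, 0.0254 and 0.0301. These likenesses span 4 libraries each.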

How the data were processed

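H3K27me3 ChIP-seq and RNA-seq were each done in 1 library per genotype. Reads were aligned to mm9 with Bowtie 0.12.7, per the labels. Cufflinks, Cuffdiff and bcl2fastq are listed in the submitters' processing notes, with no step given for them. The deposited tables hold signal, coverage per M reads, as made by the authors: a sum and a highest bin over a 6 kb window for H3K27me3, and the average and median over exons of each exon's peak for RNA. How these columns were computed, and whether input was subtracted, is not given in the sources used here.

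The average over exons was used for RNA. Ratios used a pseudocount of 1 for H3K27me3 and 0.1 for RNA, a minimum of 1 in the higher library and a 2-fold threshold. Depth was read from the height of 1 read, and 95% exact counting intervals from read equivalents. The 2-fold rule was run on simulated counts that hold counting error alone, with planted differences larger than 2-fold. That run does not bear on variation between mice or on the smaller differences described here. CG counts and sequences came from the mm9 genome. Python 3.11.15, numpy 2.4.6, pandas 2.3.3 and scipy 1.17.1 were used.

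The 8 receptors and the gene lists were chosen with earlier results of these data known. All 8 are described. From other lists, genes past 2-fold against WT are named, or else up to 2 with the highest double KO ratio. No test across libraries was possible. Alternatives tried were other scalings, pseudocounts, minimums and thresholds, the highest bin and the median over exons.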

Additional observations from a re-analysis of the deposited data

How the results depend on the processing

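With 1 library per genotype and assay no library could be left out, and the counting intervals do not cover differences between mice or preparations. No paired analysis was possible because each genotype has 1 library per assay. No count depended on the 2-fold rule in H3K27me3 except for Ccr10: at 1.5-fold the count was 1 in the double KO against WT, 1 against the Ezh1 KO and 1 against the Ezh2 KO, in place of 0. At 6 times background, 0 receptors were marked in the Ezh1 KO and 0 in WT, in place of 1, and at 3 times, 1 was marked in the Ezh2 KO, in place of 0. The share of all windows at 3 and 6 times was not counted, so these counts cannot be set beside it. In RNA, a 1.5-fold threshold with a minimum of 0.1, chosen after seeing the data, gave 2 receptors in the double KO against WT, 2 against the Ezh1 KO and 1 against the Ezh2 KO, in place of 0. Over 8 settings the Ccr10 log2 ratio of the double KO to WT ran from -0.95 to -0.65, and that of Ccr2 from -0.50 to -0.24. For RNA over 6 settings, that of Ccr2 ran from -0.85 to -0.34 and that of Cxcr6 from -0.79 to -0.24. The Cxcr6 H3K27me3 ratio ran from -0.26 to 0.38, the positive value coming from the highest bin, whose cause was not tested. Setting marked windows equal shifted all H3K27me3 ratios by -0.32 in Ezh1 KO cells, 0.12 in Ezh2 KO cells and -0.14 in double KO cells. Background scaling shifted them by -0.13 in the Ezh2 KO, and TMM scaling shifted RNA by 0.12 in the double KO. Of 40 receptor ratios in H3K27me3, 7 left their counting interval with the highest bin and 7 with marked windows set equal. In RNA, 2 of 40 changed sign with TMM scaling and 2 with median of ratios scaling.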

Other observations

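Genes that carry or end chemokine receptor signals showed no 2-fold difference from WT in either assay. Of 22 such windows, H3K27me3 was above WT at 11 in Ezh1 KO cells, 18 in Ezh2 KO cells and 15 in double KO cells, with median log2 ratios of 0.00, 0.12 and 0.12. Medians over all windows were 0.09, -0.01 and 0.05, in the same order. Of all windows, 0.0334%, 0.0334% and 0.172% reached 2-fold, and in RNA 0.442%, 1.5% and 1.24% of all genes over the minimum did. Rgs10, a regulator that speeds the switching off of G proteins, was at 36.2 in Ezh1 KO cells, 35.8 in Ezh2 KO cells and 43.4 in double KO cells, against 29.1 in WT. Rgs3, of the same family, was at 17.6, 21.0 and 21.8 in the Ezh1 KO, Ezh2 KO and double KO, against 15.1 in WT. For both, WT was the lowest of the 4 libraries. In RNA, 15 of the 22 genes met the minimum. Gnb1, a G protein beta subunit, was at 1.77 in Ezh1 KO cells, 1.83 in Ezh2 KO cells and 1.93 in double KO cells, against 1.61 in WT.

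Of 13 windows near the chromosome 9 receptors, 5 were above WT in Ezh1 KO cells, 4 in Ezh2 KO cells and 4 in double KO cells. Their median log2 ratios were -0.08, -0.09 and -0.07, beside 0.09, -0.01 and 0.05 over all windows. Lrrc2 H3K27me3 was 29.6 in Ezh1 KO cells, 24.7 in Ezh2 KO cells and 31.1 in double KO cells, against 23.6 in WT. Slc6a20a, an amino acid transporter gene, had the highest WT value of these 13 windows, at 75.6 in Ezh1 KO cells, 74.5 in Ezh2 KO cells and 73.2 in double KO cells, against 77.5 in WT. It was named after its values were seen, as were the windows with the lowest double KO ratios. These were Ccrl2, at -0.52 in the double KO, and Limd1, at 11.2 in Ezh1 KO cells, 9.87 in Ezh2 KO cells and 8.76 in double KO cells, against 12.9 in WT, a log2 ratio of -0.51. The receptor-like gene Ccr1l1 followed at -0.40.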
